A study of Homo sapiens with 12 samples.

Results

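Transcript models of the nonsense-mediated decay (NMD) biotype are annotated RNAs of protein-coding genes that carry a stop codon upstream of an exon junction. The members described here were the models with that biotype in the deposited target names and a mean estimated count of at least 20 over the 12 libraries. This gave 2382 members among 14208 models of the biotype and 200403 targets in all, and the members came from 1879 genes. The members were chosen by biotype and selected on mean count, so neither is a result. Just inside the count minimum were CUTA-201 with a mean estimated count of 20.0007 and LEPROTL1-207 with 20.02, and just outside it were APTX-214 with 19.996 and USP3-210 with 19.98.

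The study measured poly(A)-enriched RNA of HEK-293T cells, an immortalised line from human embryonic kidney into which the large T antigen of SV40 was introduced. The cells held a CRISPR-Cas-inspired RNA targeting system (CIRTS), an effector assembled from human protein parts and directed to an RNA by a guide RNA. There were 4 groups of 3 libraries, labelled as biological replicates: CIRTS-12 Nuclease with an NT (non-targeting) guide, CIRTS-12 Nuclease with a SMARCA4 guide, CIRTS-3 YTHDF2 with an NT guide and CIRTS-3 YTHDF2 with a SMARCA4 guide. Below, each group goes by its effector and its guide, as in nuclease-NT. No group lacked a construct, and the labels name neither the promoter, the dose nor the time, so each guide comparison is within cells that carried the same effector. In bulk RNA, fewer cells with a transcript and less of it per cell cannot be told apart.

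NMD removes mRNAs on which a ribosome stops well before the last exon junction. The exon junction complex left there by splicing is then still bound, and UPF1 with the SMG proteins starts the breakdown of the RNA. Besides faulty RNAs, the pathway clears normal products of alternative splicing: SR proteins, hnRNP proteins and several ribosomal proteins can steer their own pre-mRNA towards a form with an early stop, which keeps their level in bounds. YTHDF2, the effector of one construct, is a reader of N6-methyladenosine that recruits RNA decay factors, and SMARCA4 is the ATPase of the BAF chromatin remodelling complex.

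The stop codons are the feature that defines the members, and 10 are shown: members of splicing factor and ribosomal protein genes that the comparisons turn on, abundant members, and the member called in the test of the difference between guide effects. Each line gives the last 27 coding bases in lower case and the stop codon in capitals, 5′ to 3′ on the strand of the gene, from the GENCODE release 29 transcripts (GRCh38).
SNRPB-203: tggcctcattgcctatttgtaaagctgTAG
RPL3-204: gtcccctccccaactctgctctgctccTGA
SRSF7-204: aggtttcttcgtttgagtcagtcgcctTGA
TRA2B-206: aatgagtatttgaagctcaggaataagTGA
HNRNPA1-205: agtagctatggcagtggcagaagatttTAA
SRSF2-208: cctgaagaggaaggagcggtgtcctctTAA
RPS3-216: ggagttgagaacacagaatgttcttggTGA
CCT3-203: cccaatgggaggcattgtgatgaccaaTGA
CS-215: catgagaggcatgaagggattggtctaTGA
PGAP1-206: atgtttgagtacccggagtatcagagaTGA
SNRPB-203 has 5 exon junctions after its stop codon, with 596 bases of mature RNA to the last of them. The stop codon lies at chr20:2467258-2467260 on the minus strand, in bases that no protein_coding model of the gene holds in an exon. Those of RPL3-204 (chr22:39316844-39316846, minus strand) and SRSF7-204 (chr2:38749319-38749321, minus strand) also lie outside the exons of every protein_coding model. They stand 138 and 697 bases before the last junction. HNRNPA1-205 (chr12:54284311-54284313, plus strand) and SRSF2-208 (chr17:76736161-76736163, minus strand) share the stop codon of a protein_coding model of their gene and have 2 junctions downstream of it, 75 and 105 bases to the last. RPS3-216 (chr11:75401658-75401660, plus strand), CCT3-203 (chr1:156334735-156334737, minus strand) and CS-215 (chr12:56283817-56283819, minus strand) end early inside bases that are coding in another model, after 135, 123 and 150 coding bases counted with the stop. TRA2B-206 (chr3:185931772-185931774, minus strand) ends after 117 coding bases and PGAP1-206 (chr2:196922181-196922183, minus strand) after 153.

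Of the 2382 members, 2363 were found in GENCODE release 29, all with the same length, and 2358 of these had the same biotype there. A stop codon was annotated for 2355. It lay 50 or more bases before the last exon junction in 2351 of them, which is the distance the annotation uses and so describes the class. The median distance was 431 bases (quartiles 200 and 934.5), with a median of 4 junctions downstream. TGA was the stop in 1398 members, TAA in 516 and TAG in 441.

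The stop codon lay within bases that are coding in a protein_coding model of the same gene in 1386 members, 58.9% of those with a stop, the arrangement that a shifted reading frame gives. In 596 members (25.3%) the stop lay in bases that no protein_coding model includes in an exon, the arrangement of a poison exon or retained intron. In 289 (12.3%) it was the stop of a protein_coding model, with splicing downstream of it. In 47 it lay in untranslated exon bases of a coding model, and 37 belonged to genes with no protein_coding model among the targets matched to the annotation.

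The members are hard to tell from their neighbours by sequence. Of all overlapping 31-base words of a member, a median of 28 occurred in no other annotated transcript, 1.96% of its words. This is about what 1 exon junction of its own gives. For 561 members no such word existed, 1042 had 1 to 30 and 760 had more than 30. No single word tells these 561 from all other models, so their estimated counts can rest on how shared reads were divided. The median coefficient of variation of the share of the gene between libraries of a group was 46.5% for members with no word of their own, 41.5% with 1 to 30 and 36.2% with more than 30.

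**Figure D1:**
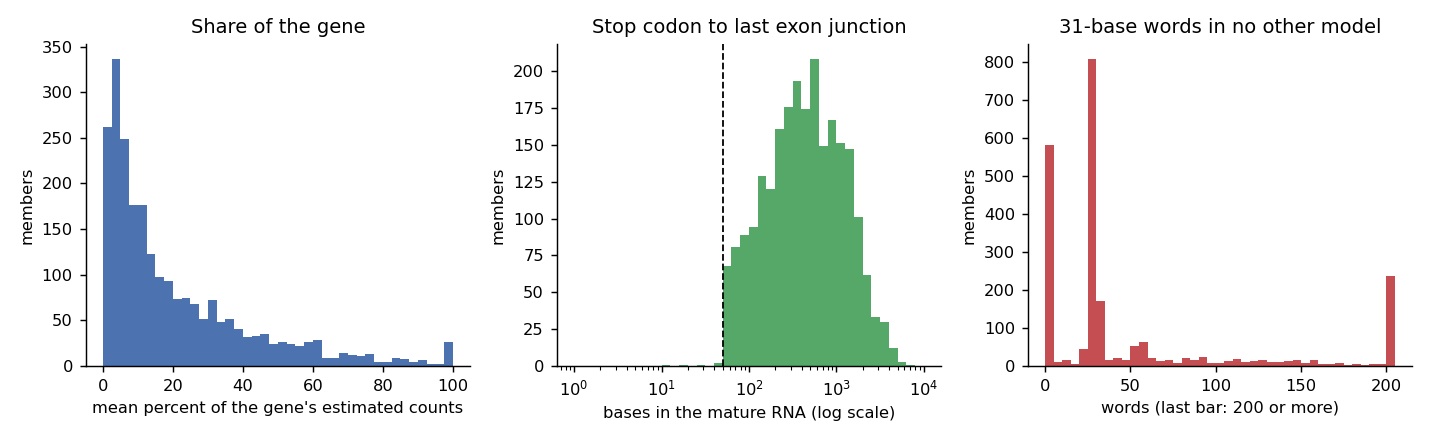
Histograms over the members: the mean share of the gene's estimated counts over 12 libraries in percent, the distance from stop codon to last exon junction in bases on a log scale (dashed line at 50 bases; 1 member with a stop after its last junction is not drawn), and the number of 31-base words found in no other transcript (values of 200 or more in the last bar). The median share was 12.4%, the median distance 431 bases and the median number of words 28.

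Library totals ran from 9207196 to 18047859 estimated counts. SMARCA4, the target of the guide, stood at 245 ± 11.9 counts per 1000000 counts (CPM; SD, n = 3) with the NT guide and 233 ± 11.6 with its own guide in the nuclease cells. In the YTHDF2 cells these were 251 ± 18.7 and 228 ± 18.7. Its values overlapped between guides with both effectors. All 11 markers of HEK-293T cells fixed for the check reached 1 TPM in at least 1 library. Their summed level was 645 to 785 TPM, of which VIM alone made 368 to 468. By the same rule 2 of 4 liver, 2 of 5 blood and 3 of 5 fibroblast markers reached 1 TPM. Their summed levels were at most 2.97 TPM for liver, 5.49 for blood and 6.11 for fibroblast markers, and HBB was at 0. YTHDF2-NT replicate 1 stood apart: 209 members had no count there, against 71 to 113 in each of the other 11 libraries. Its median member share of the gene was the lowest of the 12 at 11.2%. Without it the class differences given next were 0.0788 instead of 0.0730 points between the YTHDF2 guides and -0.0840 instead of -0.0781 between the effectors with the NT guide.

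The members held 3.53 to 3.76% of all estimated counts in the 12 libraries. In nuclease-NT they held 3.71, 3.72 and 3.76%, and in nuclease-SMARCA4 3.58, 3.63 and 3.66%. Each nuclease-SMARCA4 library was below each nuclease-NT library, by a difference of means of -0.112 percentage points or -2.99% of the nuclease-NT level. In YTHDF2-NT they held 3.66, 3.53 and 3.76%, and in YTHDF2-SMARCA4 3.75, 3.73 and 3.70%. These overlapped, with a difference of 0.0730 points. Between effectors the groups overlapped with the NT guide (-0.0781 points) and did not with the SMARCA4 guide (0.106 points, YTHDF2 higher). Both differences that use YTHDF2-NT moved by over 1.5 times with 1 of its libraries: without replicate 2 they were 0.0120 points between the guides and -0.0171 between the effectors, and without replicate 3 they were 0.128 and -0.133.

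Taken against the counts of their own genes, the members held 16.6, 16.8 and 16.8% in nuclease-NT, compared with 16.1, 16.2 and 16.2% in nuclease-SMARCA4. YTHDF2-NT had 15.8, 16.1 and 16.8% and YTHDF2-SMARCA4 had 16.8, 16.6 and 16.7%. The nuclease groups again did not overlap, at -0.592 points, nor did the effectors with the SMARCA4 guide, at 0.558 points. The 1879 genes themselves held 22.0 to 23.2% of all counts. In TPM, which divide by length, the guides differed by -0.0944 points with the nuclease, without overlap. The YTHDF2 guides differed by 0.145 points in TPM, with overlap. In that unit the effectors differed by -0.185 points with the NT guide, without overlap, and by 0.0542 points with the SMARCA4 guide, with overlap. Of the -0.112 points with the nuclease, -0.0669 came from lower shares within genes and -0.0447 from the levels of the genes. The same 2 parts were 0.0176 and 0.0553 points between the YTHDF2 guides. Between the effectors they were -0.00177 and -0.0763 points with the NT guide, and 0.0814 and 0.0250 with the SMARCA4 guide. A share of the summed counts of own genes also moves with the levels of those genes.

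Members of ribosomal protein genes had the opposite order of means in percent of all counts. These 25 members held 0.317 ± 0.0380% of all counts (SD, n = 3) in nuclease-NT and 0.368 ± 0.0333% in nuclease-SMARCA4, with overlap. Against the counts of their own genes they held nearly the same in both groups, 12.07 ± 1.24% and 12.16 ± 0.434%. Without them the members held 3.41 ± 0.0659% in nuclease-NT and 3.25 ± 0.0542% in nuclease-SMARCA4, a difference of -0.162 points with no overlap. Models of the retained_intron biotype, the class most like this one in that both arise from alternative splicing, held 3.25 ± 0.0519% in nuclease-NT and 3.23 ± 0.0922% in nuclease-SMARCA4. These overlapped. The difference between the biotypes' changes was not tested.

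By place of the stop codon, members with a stop outside every coding model's exons held 0.720, 0.745 and 0.756% of all counts in nuclease-NT, compared with 0.715, 0.701 and 0.714% in nuclease-SMARCA4. Members sharing the stop of a coding model held 0.387, 0.405 and 0.401%, and then 0.348, 0.351 and 0.367%. Neither pair of groups overlapped. The largest class, with the stop in coding bases, held 2.46, 2.43 and 2.46% and then 2.37, 2.44 and 2.43%, which overlapped.

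**Figure D2:**
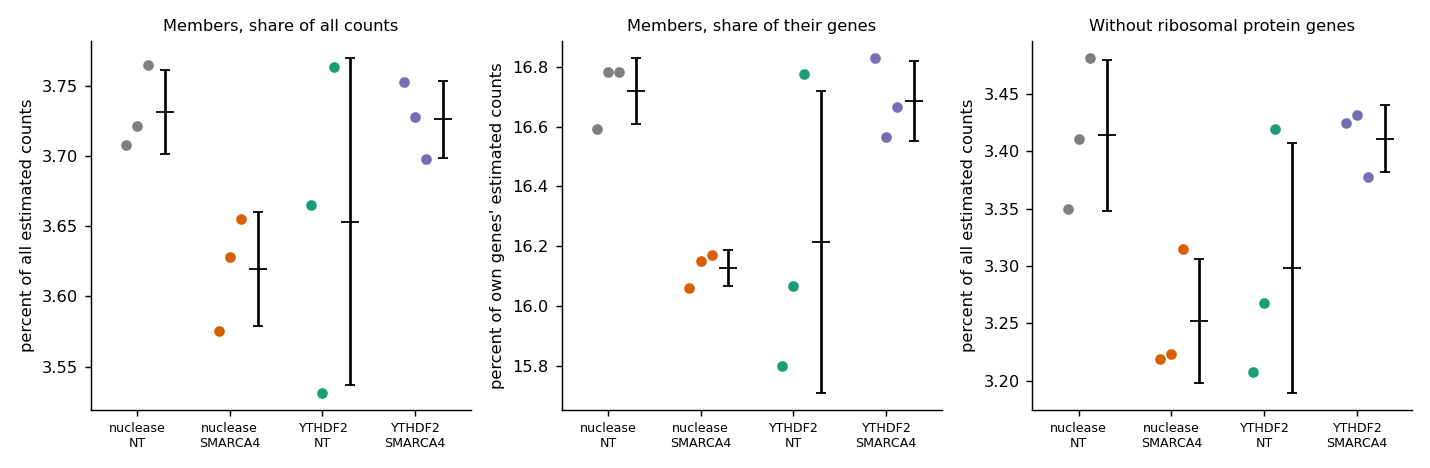
Points are the 12 libraries in 4 groups of 3, with the group mean and SD in black to the right; the vertical axes do not start at 0. Left, members in percent of all estimated counts; middle, in percent of the counts of their own genes; right, without members of ribosomal protein genes. Nuclease-SMARCA4 lies below nuclease-NT in all 3 panels without overlap.

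Most members were minor products of their gene. The median share of the gene's counts was 12.4% (quartiles 4.98 and 30.1%), 598 members were below 5%, 263 above 50% and 37 above 90%. In 465 cases the member was the most abundant model of its gene. Members above 50% were longer than the others (median 2381.5 against 1625 bases), came from genes with fewer models (median 8 against 13) and had annotation support level 1, the best, more often (35.5 against 25.9%). A share is of estimated counts, which grow with length, and the members had a median of 0.851 times the mean length of the other models of their gene.

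The 10 most abundant members held 13.5% of the members' counts. RPS3-216, from the gene of a small ribosomal subunit protein, had a mean estimated count of 15315. Its share of RPS3 was 53.5, 52.7 and 50.5% in nuclease-NT, 49.3, 50.7 and 50.1% in nuclease-SMARCA4, 53.5, 51.8 and 49.7% in YTHDF2-NT, compared with 49.3, 49.1 and 49.0% in YTHDF2-SMARCA4. With the YTHDF2 effector the guides did not overlap, but edgeR's usage test did not call it (adjusted p = 1). A second RPS3 member, RPS3-204, held 11.1 to 16.6%, so the annotation and the quantification assign most RPS3 reads to models with an early stop. RPL18-206 held 52.4 to 60.2% of RPL18, a large subunit protein gene, and RPS25-206 held 45.3 to 54.5% of RPS25. RPLP0-214, from the gene of a ribosomal stalk protein, ran from 14.5 to 36.0% and was highest in YTHDF2-NT replicate 1. Reads of ribosomal protein genes can also come from their many processed pseudogenes.

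Several housekeeping genes had most of their counts on a member. CCT3-203 held 45.5 to 67.4% of CCT3, a subunit of the cytosolic chaperonin. PDIA3-202 held 73.1 to 88.9% of PDIA3, a disulfide isomerase of the endoplasmic reticulum, and has 205 words of its own. CS-215 held 71.8 to 83.0% of CS, the citrate synthase of the mitochondrial citrate cycle. GANAB-211 held 47.4 to 80.4% of the alpha subunit of glucosidase II and YWHAE-202 held 11.8 to 35.9% of 14-3-3 epsilon. In both, the highest value was that of YTHDF2-NT replicate 1.

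**Figure D3:**
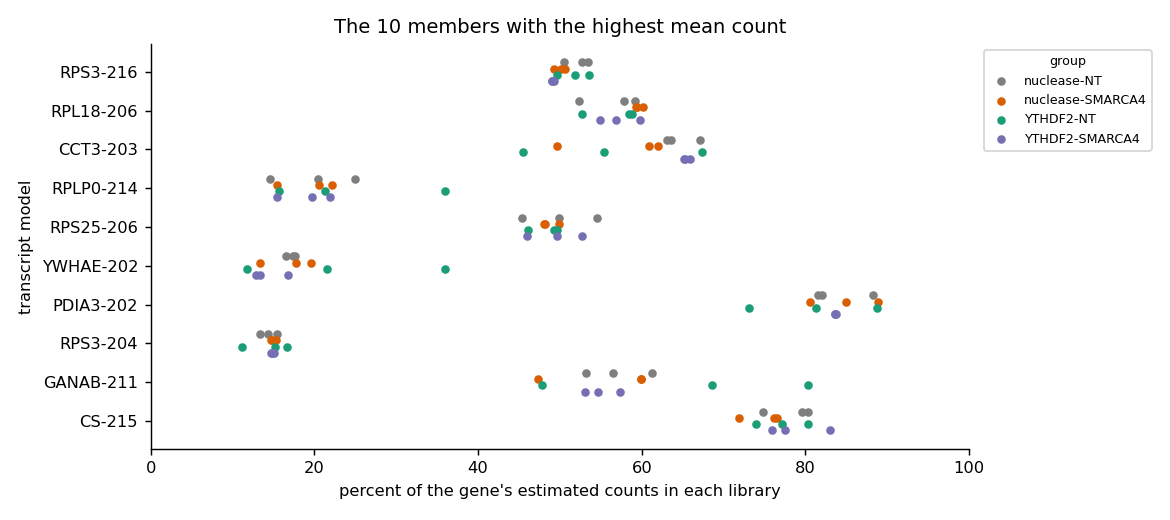
Each point is the share of the gene's estimated counts in percent held by a member in 1 library, coloured by group, for the 10 members with the highest mean count. Groups overlap for most members; RPS3-216 stays between 49.0 and 53.5%, and GANAB-211 spreads widest within YTHDF2-NT, from 47.9 to 80.4%.

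Among genes with 2 or more models and a mean count of at least 100, the highest mean shares were near 100%. AC010132.3-201 held 99.6 to 100% in every library. PODXL-203 held 95.9 to 100% of podocalyxin, a sialomucin of the cell surface, and QKI-204 held 88.1 to 90.1% of QKI, an RNA-binding regulator of splicing. QKI-204 shares the stop codon of a protein_coding model and has 643 words of its own, so here the member differs from the other models in the RNA after the stop. TAF4B-202 held 79.1 to 98.9% of a TFIID subunit gene, and PTDSS1-201 held 86.1 to 92.8% of a phosphatidylserine synthase gene. GCC2-211, CDC14B-204, PDGFC-201 and AC116366.3-204 were also among the 10 highest, at mean shares of 91.3, 92.6, 90.03 and 95.6%.

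With the nuclease, the SMARCA4 guide was compared with the NT guide member by member. edgeR's quasi-likelihood test of transcript counts called 0 of 2379 members tested at an adjusted p below 0.05, where 0.00202% of all 49518 targets tested were called. At an unadjusted p below 0.05 it had 112 members, 4.71% against 4.72% of all targets. DESeq2 called 26 of 2351, where 0.988% of all targets were called, among them SNRPB-203, KDM7A-202, RPL3-204 and SRSF7-204. edgeR's usage test asks whether a model moves against its gene as a whole. It called 0 of 2341 members (0.0295% of all 44039 targets tested), and limma on log ratios also called 0. The usage test had 55 members at an unadjusted p below 0.05 (2.35%, against 4.63% of all). The median log2 usage change was -0.027 over members (-0.0125 without nuclease-NT replicate 3) and -0.0074 over all targets. Shares were higher without overlap in 103 members and lower in 156 of 2362, or 4.36 and 6.60%, where 5.53 and 5.83% of all 31012 targets were. At an unadjusted p below 0.05 the members' share was thus near that of all targets in the transcript test and lower in the usage test.

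Splicing factor genes hold the best-studied members, since many of them regulate their own splicing. The 13 members of SR protein genes and TRA2B held 7.98, 8.10 and 9.42% of their genes' counts in nuclease-NT, compared with 6.06, 6.57 and 6.86% in nuclease-SMARCA4. The 38 members of hnRNP and other splicing regulator genes held 9.25, 9.20 and 9.28%, and then 7.65, 7.29 and 8.23%. Neither pair overlapped. With YTHDF2 the SR members held 7.02, 7.24 and 8.14% and then 7.17, 8.39 and 8.04%, and the hnRNP list 7.75, 8.96 and 8.89% and then 8.83, 9.44 and 9.08%, both with overlap. A list of genes known to be cleared by NMD, with 14 members of which 5 are in the SR list, 3 in the hnRNP list and 1 is RPL3-204, held 5.02, 5.95 and 6.39% in nuclease-NT, compared with 3.50, 3.25 and 4.36% in nuclease-SMARCA4. These lists were written with earlier results of these data known and are no independent evidence of a direction. A summed share also moves with the levels of the genes, and it was not split into shares and levels for the lists. In the NMD-sensitive list RPL3 was at 2235 and then 2560 CPM and SRSF2 at 397 and then 301, as means of nuclease-NT and nuclease-SMARCA4. In the hnRNP list HNRNPA1 was at 2813 and then 3122 CPM and DDX5 at 471 and then 358.

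Within the SR list, 8 of 13 shares were lower and 5 higher in nuclease-SMARCA4, 3 and 1 of them without overlap, and the usage test called 0. Within the hnRNP list 23 of 38 were lower and 15 higher, 7 and 1 without overlap, again with 0 called. In the NMD-sensitive list 10 of 14 were lower and 4 higher, 3 and 1 without overlap. Over all targets 5.83% were lower and 5.53% higher without overlap, and lists this short give no test of a difference from that. The medians of the log2 usage change were -0.25, -0.11 and -0.37 in the SR, hnRNP and NMD-sensitive lists, against -0.0074 over all targets.

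**Figure D4:**
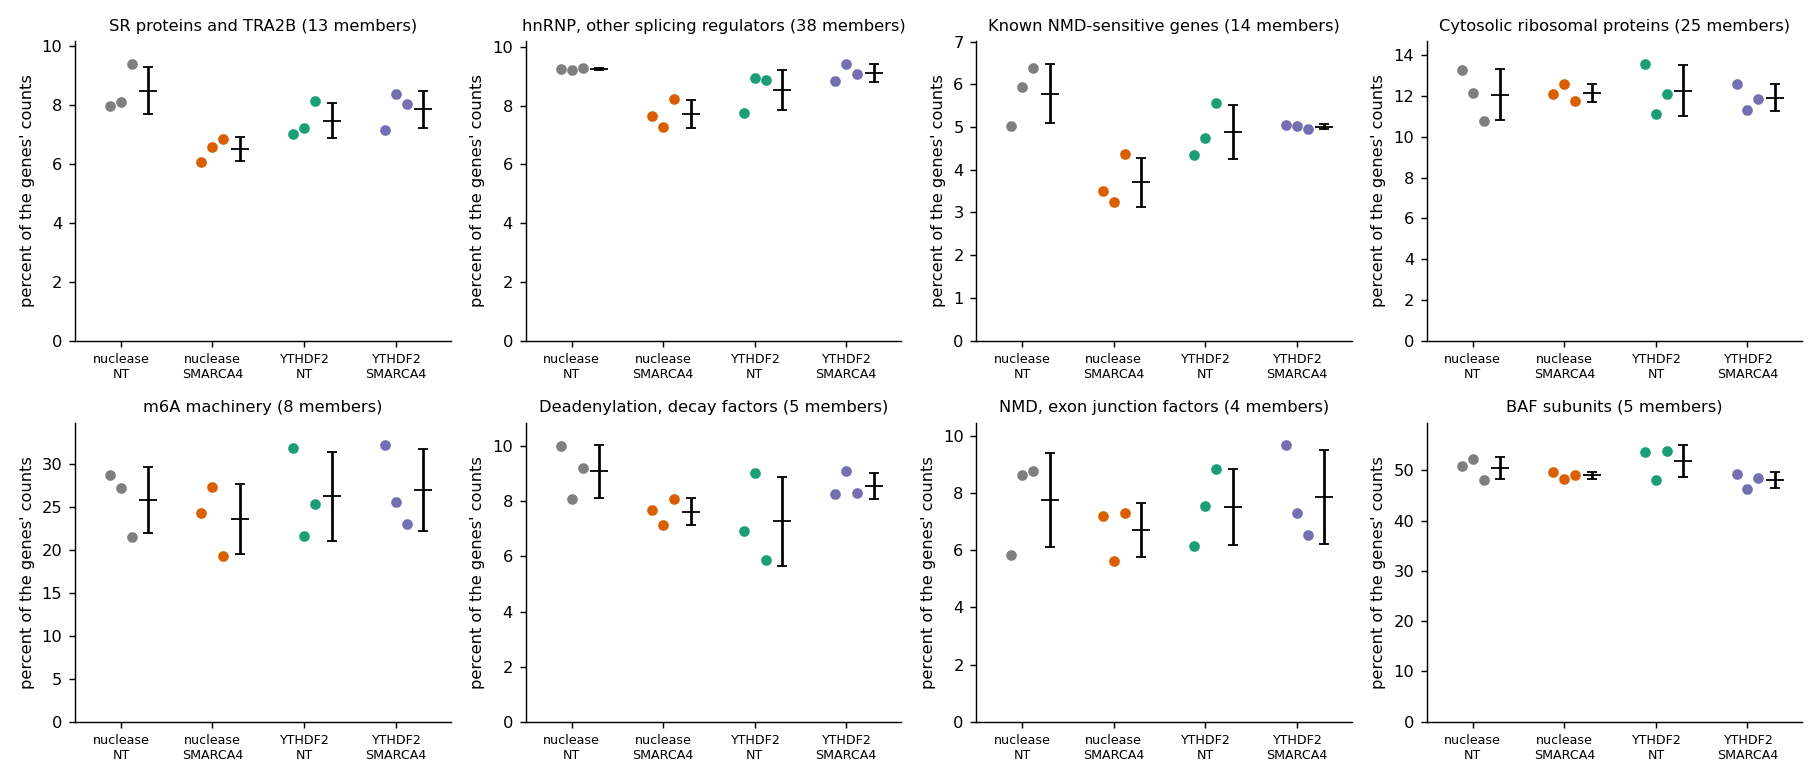
Summed share of the members in the estimated counts of their genes, in percent, for 8 gene lists; points are libraries, black marks the group mean and SD. The SR, hnRNP, NMD-sensitive and decay factor lists are lower in nuclease-SMARCA4 than in nuclease-NT without overlap, and the other 4 lists overlap.

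SRSF7-204, from the gene of an SR protein that binds exonic enhancers, includes the early stop shown above. It held 15.8, 14.9 and 16.3% of SRSF7 in nuclease-NT, compared with 6.51, 12.3 and 8.79% in nuclease-SMARCA4. With YTHDF2 it held 11.6, 12.2 and 17.1% and then 15.0, 19.7 and 17.3%. Nuclease-SMARCA4 replicates 1 and 3 were the lowest of the 12 libraries, and replicate 2 was below every nuclease-NT library. Its count differed by a log2 fold change of -1.01 (SE 0.249) in edgeR's transcript test, with an unadjusted p of 0.00228 and an adjusted p of 1, while DESeq2 gave an adjusted p of 0.00914. In edgeR's usage test its unadjusted p was 0.0232 and its adjusted p 0.744. All counts of SRSF7 were also lower, at 365 ± 29.8 CPM (SD, n = 3) in nuclease-NT and 293 ± 20.3 in nuclease-SMARCA4. SRSF7-204 has 0 words of its own, so its estimate can rest on how reads shared with other models were divided.

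SNRPB-203 comes from the gene of the SmB and SmB′ core proteins of spliceosomal snRNPs, which is known to control its own level through an alternative exon with an early stop. It held 2.15, 3.38 and 4.01% of SNRPB in nuclease-NT, compared with 1.40, 1.29 and 1.23% in nuclease-SMARCA4, and 1.36, 1.91 and 1.88% in YTHDF2-NT, compared with 2.09, 2.27 and 2.02% in YTHDF2-SMARCA4. With the nuclease every SMARCA4-guide library was below every NT-guide library, and with YTHDF2 every one was above. The log2 fold change of its count with the nuclease was -1.11 (SE 0.216), with an unadjusted p of 0.000441 and an adjusted p of 0.850 in edgeR's transcript test and 5.84e-05 in DESeq2. The difference between its guide effects was 1.36 on the log2 scale (SE 0.303), with an adjusted p of 0.953 in edgeR and 0.00154 in DESeq2. In edgeR's usage test the unadjusted p was 0.0831 with the nuclease and 0.118 for the difference between guide effects. SNRPB as a whole was at 510 ± 23.3 CPM (SD, n = 3) in nuclease-NT and 537 ± 27.6 in nuclease-SMARCA4, with overlap.

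RPL3-204 comes from the gene of a large ribosomal subunit protein that also represses its own splicing. It held 0.804, 1.22 and 1.33% of RPL3 in nuclease-NT, compared with 0.484, 0.512 and 0.584% in nuclease-SMARCA4, without overlap, and 0.648 to 0.904% in YTHDF2-NT and 0.765 to 1.10% in YTHDF2-SMARCA4, with overlap. RPL3 itself was higher, at 2235 ± 94.1 CPM (SD, n = 3) in nuclease-NT and 2560 ± 122 in nuclease-SMARCA4. The log2 fold change of the count of RPL3-204 was -0.81 (SE 0.189), with an adjusted p of 1 in edgeR's transcript test and 0.00574 in DESeq2. In edgeR's usage test its unadjusted p was 0.127.

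HNRNPA1-205 and HNRNPA2B1-203 belong to abundant hnRNP proteins and carry splicing downstream of a coding model's stop. HNRNPA1-205 held 6.50, 6.01 and 5.73% of HNRNPA1 in nuclease-NT, compared with 4.41, 4.91 and 4.44% in nuclease-SMARCA4. With YTHDF2 it held 4.64, 5.38 and 5.27% and then 6.06, 6.07 and 5.69%. The guides did not overlap with either effector, lower with the nuclease and higher with YTHDF2. Its log2 usage difference between the guide effects was 0.63, with an adjusted p of 0.999989 in edgeR's usage test. HNRNPA1 was at 2813 ± 70.1 CPM (SD, n = 3) in nuclease-NT and 3122 ± 89.4 in nuclease-SMARCA4, and processed pseudogenes of HNRNPA1 may take or give reads. HNRNPA2B1-203 held 6.27, 6.42 and 6.68% in nuclease-NT, compared with 4.29, 3.77 and 5.21% in nuclease-SMARCA4, while the YTHDF2 groups overlapped.

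The other members of these 3 lists that were lower without overlap in nuclease-SMARCA4 were SRSF4-206, SRSF10-215, TARDBP-224, HNRNPDL-202, SNRNP70-204, RBM39-216, UPP1-205 and ASNS-213. SRSF4-206 held 1.12, 1.05 and 1.002% of SRSF4 in nuclease-NT, compared with 0.598, 0.475 and 0.273% in nuclease-SMARCA4. SNRNP70-204, from the gene of the U1 snRNP 70 kDa protein, held 16.9, 16.2 and 20.7% and then 15.7, 14.7 and 11.7%. SRSF3-204 and LUC7L3-214 were higher without overlap, LUC7L3-214 at 4.95, 4.90 and 3.77% and then 5.29, 7.08 and 7.66%. These members were named after their values were seen.

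For 3 other well-known autoregulated models the groups overlapped, with lower means in nuclease-SMARCA4. SRSF1-207, with a stop shared with a coding model, held 8.50, 10.1 and 11.1% of SRSF1 in nuclease-NT, compared with 9.32, 9.15 and 9.59% in nuclease-SMARCA4. SRSF2-208 held 13.5, 11.95 and 18.0% and then 7.84, 12.9 and 10.4%, and TRA2B-206 12.8, 11.6 and 13.9% and then 8.55, 9.44 and 13.9%. DDX5-218, from the gene of an RNA helicase, was the most abundant member of the hnRNP list and held 38.7 to 51.0% in nuclease-NT and 45.2 to 46.4% in nuclease-SMARCA4.

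**Figure D5:**
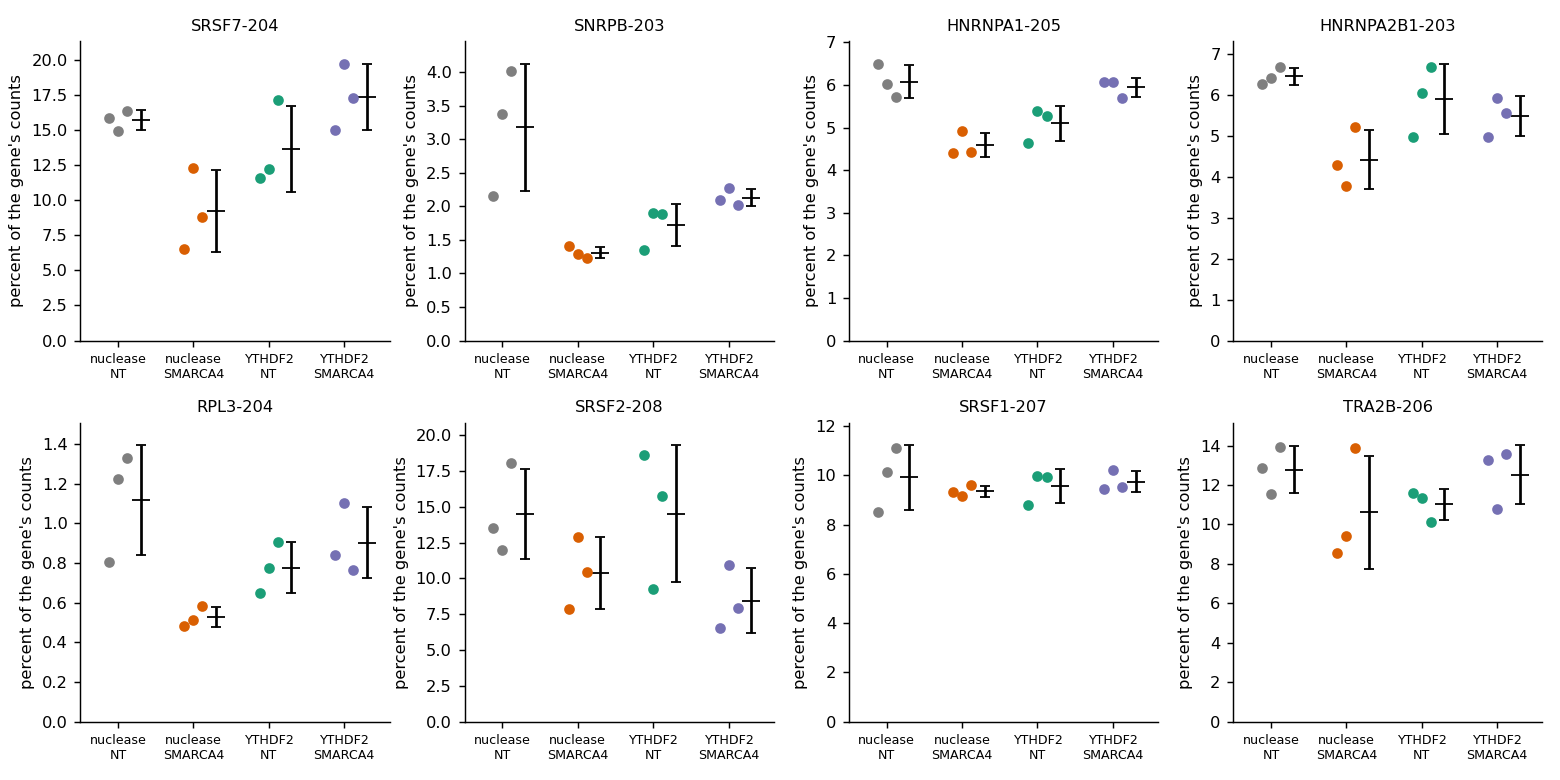
Share of the gene's estimated counts in percent for 8 members; points are libraries, black marks the group mean and SD. SRSF7-204, SNRPB-203, HNRNPA1-205, HNRNPA2B1-203 and RPL3-204 are lower in nuclease-SMARCA4 than in nuclease-NT without overlap; SRSF2-208, SRSF1-207 and TRA2B-206 overlap.

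KDM7A-202 was a member with a higher level in nuclease-SMARCA4. KDM7A encodes a histone demethylase, and the stop codon of KDM7A-202 lies outside the exons of every protein_coding model. It held 46.0, 40.98 and 45.9% of the gene in nuclease-NT, compared with 71.9, 68.1 and 71.7% in nuclease-SMARCA4, and 67.9, 39.5 and 57.1% and then 63.1, 59.5 and 59.4% with YTHDF2. The nuclease groups did not overlap and the YTHDF2 groups overlapped. The log2 fold change of its count with the nuclease was 0.80 (SE 0.175), with an unadjusted p of 0.00105 and an adjusted p of 1 in edgeR's transcript test and 0.000197 in DESeq2. These test the count, and edgeR's usage test, which compares the model with its gene, gave an unadjusted p of 0.271.

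With the YTHDF2 effector, edgeR's transcript test called 0 of 2379 members between the guides (0.00606% of all targets tested), with 103 at an unadjusted p below 0.05 (4.33% of all), and DESeq2 called 16 (0.642% of all). The usage test called 2 of 2341 (0.0545% of all targets), with 70 at an unadjusted p below 0.05 (2.99%, against 4.79% of all), and limma called 0. The median log2 usage change was 0.027 over members and 0.0049 over all. Without YTHDF2-NT replicate 1, 2 or 3 the members' median was 0.00815, 0.0409 or 0.0469, and without YTHDF2-SMARCA4 replicate 2 it was 0.0177. Shares were higher without overlap in 136 and lower in 97 of 2362, or 5.76 and 4.11%, beside 5.05 and 4.72% of all targets.

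Both called members had estimated counts near 0 in YTHDF2-SMARCA4. RARS-204, from the gene of the cytosolic arginyl-tRNA synthetase, held 28.5, 0 and 16.2% of RARS in YTHDF2-NT and at most 0.0127% in YTHDF2-SMARCA4 (adjusted p = 0.00959, edgeR's usage test). YTHDF2-NT replicate 2 was also near 0, so the groups overlap. ATG9A-203, from the gene of a lipid scramblase of autophagy, held 43.1, 5.47 and 32.8% and then at most 0.0347% (adjusted p = 0.0335, edgeR's usage test). The call was lost in 3 of 12 fits with 1 library left out for RARS-204 and in 8 of 12 for ATG9A-203, and limma called neither. In the nuclease groups ATG9A-203 ran from 0 to 49.3%, wider than the difference between the guides. When RARS-204 was near 0, the protein_coding model RARS-201 held 97.5 to 98.5% of the gene in YTHDF2-SMARCA4, against 70.4 and 82.2% in the 2 YTHDF2-NT libraries with RARS-204.

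SERHL2-205 had the lowest p among members in the transcript test of the YTHDF2 guides. It held 69.0, 94.8 and 71.5% of SERHL2, a serine hydrolase-like gene, in YTHDF2-NT, compared with 14.8, 26.6 and 10.4% in YTHDF2-SMARCA4. In nuclease-NT it held 57.3, 70.9 and 72.1% and in nuclease-SMARCA4 50.6, 52.4 and 55.4%, so the 3 YTHDF2-SMARCA4 libraries were the lowest of the 12. The log2 fold change was -2.43 (SE 0.376), with an unadjusted p of 7.76e-05 and an adjusted p of 0.349 in edgeR's transcript test and 4.27e-10 in DESeq2. In edgeR's usage test its unadjusted p was 0.0781. The gene is low, at 4.43 to 5.66 CPM as group means, and SERHL2 has a near-identical neighbouring copy, SERHL, so the split of its reads is uncertain. SEMA4G-211, a member of a semaphorin gene, held 0% in all 3 YTHDF2-NT libraries and 62.9, 40.0 and 28.3% in YTHDF2-SMARCA4, with an adjusted p of 0.0737 in the usage test. ACADVL-225 had no count in the 3 YTHDF2-SMARCA4 libraries and held 2.10 to 6.04% in YTHDF2-NT.

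Between the effectors with the NT guide, the transcript test called 0 of 2379 members (0.00404% of all targets tested), with 124 at an unadjusted p below 0.05 (5.17% of all), and DESeq2 called 15 (0.965% of all). The usage test called 1 (0.0454% of all), with 65 at an unadjusted p below 0.05 (2.78%, against 4.87% of all), and limma called 0. It was THOC3-205, from a gene of the THO complex of mRNA export, with 7.67, 8.03 and 0.00339% of THOC3 in nuclease-NT and at most 1.05e-05% in YTHDF2-NT (adjusted p = 0.0427, edgeR's usage test). Nuclease-NT replicate 3 had an estimated count of 0.0382 for it, so THOC3-205 rests on 2 libraries, and its call was lost in 8 of 12 fits with 1 library left out. Shares were higher in YTHDF2-NT without overlap in 108 and lower in 137 members, beside 4.62 and 5.08% of all targets. Here YTHDF2-NT replicate 1, with its many members at 0, is among the 3 libraries.

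Between the effectors with the SMARCA4 guide, the transcript test called 0 of 2379 (0.00808% of all targets tested), with 113 at an unadjusted p below 0.05 (4.44% of all), and DESeq2 called 17 (0.768% of all). The usage test called 1 (0.0659% of all), with 56 at an unadjusted p below 0.05 (2.39%, against 4.5% of all), and limma called 0. It was UIMC1-213, from the gene of RAP80, a ubiquitin-binding subunit of the BRCA1-A complex. UIMC1-213 held 0.780, 0.0556 and 0.0110% of UIMC1 in nuclease-SMARCA4 and 36.9, 24.3 and 12.7% in YTHDF2-SMARCA4 (adjusted p = 0.0333, edgeR's usage test). It held 15.7, 0.000129 and 20.6% in nuclease-NT and 15.7, 17.1 and 19.1% in YTHDF2-NT, so 4 of the 12 libraries were below 1%. The call was lost in 5 of 12 fits with 1 library left out. Shares were higher in YTHDF2-SMARCA4 without overlap in 156 and lower in 131 members, beside 5.79 and 5.51% of all targets. This comparison and that of the nuclease guides share the nuclease-SMARCA4 libraries, so the opposite signs of their class shares are not separate observations.

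The interaction asks whether the SMARCA4 guide's effect differed between the effectors. The transcript test called 0 of 2379 members (0.00606% of all targets tested), with 115 at an unadjusted p below 0.05 (5.11% of all), and DESeq2 called 24 (0.846% of all). The usage test called 1 (0.154% of all), with 75 at an unadjusted p below 0.05 (3.20%, against 5.3% of all), and limma called 0. The called member was PGAP1-206, from the gene of an enzyme that remodels glycosylphosphatidylinositol anchors. It held 9.94, 21.4 and 33.5% of PGAP1 in nuclease-NT and at most 0.000114% in nuclease-SMARCA4, and 0, 4.45 and 4.65% in YTHDF2-NT, compared with 8.26, 38.0 and 18.9% in YTHDF2-SMARCA4 (adjusted p = 0.0327, edgeR's usage test). The share was near 0 with the SMARCA4 guide in the nuclease cells and higher with it in the YTHDF2 cells. Its mean estimated count was 42.1, and PGAP1-201, a protein_coding model, was the most abundant other model.

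Other lists fixed for the pathway gave no usage call in any comparison. Of 21 NMD and exon junction factor genes, 3 had a member, 4 members in all. MAGOHB-208, from a gene of the exon junction core, held 26.0, 28.6 and 28.3% of MAGOHB in nuclease-NT, compared with 18.5, 22.7 and 18.0% in nuclease-SMARCA4, without overlap, while the YTHDF2 groups ran from 22.3 to 32.0%. The list as a whole overlapped in every comparison. Of 19 m6A machinery genes, 4 had a member, 8 in all, among them VIRMA-207 at 15.5 to 19.1% of VIRMA, a scaffold of the methyltransferase complex, and METTL3-208 at 13.4 to 32.8% of METTL3, its catalytic subunit. YTHDF3-208 ran from 0.0584 to 52.8%. Of 28 deadenylation and decay factor genes, 5 had a member, 5 in all. These held 9.997, 8.08 and 9.21% of their genes' counts in nuclease-NT and 7.68, 7.13 and 8.08% with the SMARCA4 guide, which did not overlap by a margin under 0.01 points, and 4 of the 5 shares were lower, none without overlap. With YTHDF2 the groups overlapped. CNOT10-203 held 19.0 to 34.1% of CNOT10, a subunit of the CCR4-NOT deadenylase.

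Of 24 BAF subunit genes, 4 had a member, 5 in all, and SMARCA4 itself had none. SMARCE1-214 held 66.8 to 74.9% of SMARCE1, and ARID1A-206 6.52 to 19.9% of ARID1A. BRD9-212 held 56.8, 47.2 and 53.9% of BRD9 in YTHDF2-NT, compared with 37.7, 35.6 and 40.1% in YTHDF2-SMARCA4, without overlap and with an adjusted p of 1 in edgeR's usage test. In the nuclease groups BRD9-212 ran from 40.1 to 51.6%, with overlap. The 3 members of ZPR1 held at most 0.419% of that gene together.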

How the data were processed

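RNA of HEK-293T cells was measured in 12 libraries, 4 groups of 3. The authors quantified reads against annotated transcripts with kallisto, with sleuth and the hg38 build also named per the submitters' processing notes; versions are not given in the sources used here. The deposited table of each library holds 1 estimated count and 1 TPM value (transcripts per 1000000, scaled by length) for each target, as the authors' quantification wrote them. Reads that fit several models were divided among them in that step, so a model with little sequence of its own can pass reads to its neighbours.

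From these, shares of a gene's or library's estimated counts were computed. For the tests, estimated counts were rounded to whole numbers and fitted in R 4.3.3 with edgeR 4.0.16 (filterByExpr, TMM scaling, quasi-likelihood test, all 12 libraries in 1 fit with a mean per group). The transcript test compares the count of a model. The SE given with its log2 fold change was worked back from the test. It is the size of the fold change divided by the square root of the F statistic. The usage test compares a model's change with that of its whole gene, the model included, and limma on log ratios uses the rest of the gene. P-values were adjusted by Benjamini-Hochberg over all targets tested, with a threshold of 0.05. limma 3.58.1, DESeq2 1.42.0, other scalings, filters, count minimums of 10 and 50, a replicate block, a length trend and each library left out were the alternatives. The tests were checked on simulated counts whose spread was capped below that of these data, where the fit had a biological coefficient of variation of 83.8%. That check therefore does not show what the tests find or miss at the real spread. Groups called without overlap had every library of one above every library of the other. No p-value is given for the class share, since the members were chosen with earlier results of these data known, as were the gene lists, and 3 libraries against 3 cannot go below 0.1 in an exact permutation test.

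The members named were, by rule, the 10 with the highest mean count, the 10 with the highest mean share in genes of 2 or more models with a mean count of at least 100, those called or with the lowest p in a test, and members of the gene lists; a few of these are not reported here. Model structure, stop codons and 31-base words came from GENCODE release 29. The labels call the libraries biological replicates without saying what was separate, so p-values measure only the spread between these samples. No batch is given in the labels used here, and an effector cannot be told apart from anything handled together with it. Library totals, which limit low models most, are given with the results.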

Additional observations from a re-analysis of the deposited data

Results flagged for a closer look

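The interaction asks whether the SMARCA4 guide's effect on usage differed between the nuclease and the YTHDF2 effector. PGAP1-206 was the 1 member called in it (adjusted p = 0.0327092, edgeR's usage test over 44039 targets). Its share of PGAP1 was 9.94, 21.4 and 33.5% in nuclease-NT and at most 0.000114% in the 3 nuclease-SMARCA4 libraries. With YTHDF2 the SMARCA4-guide libraries had 8.26, 38.0 and 18.9% and the NT-guide libraries 0, 4.45 and 4.65%. The direction of the difference was the same in all 12 fits that left out 1 library, with a log2 value between 11.1 and 12.2, which depends on the prior count where a group is near 0. The call was lost in 9 of those 12 fits, in limma on log ratios and with a replicate block. PGAP1-201, the most abundant coding model, held 61.7 to 75.6% in nuclease-NT and 64.0 to 77.0% in nuclease-SMARCA4, with overlap.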

How the results depend on the processing

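Against the counts of the members' own genes, the class differences were -0.592 (nuclease guides), 0.472 (YTHDF2 guides), -0.505 (effectors with NT) and 0.558 points (effectors with SMARCA4). Such summed shares also move with the levels of the genes. In TPM the class differences were 0.145 points between the YTHDF2 guides and -0.185 and 0.0542 between the effectors with NT and with SMARCA4. Without ribosomal protein genes, an alternative chosen after seeing the data, they were -0.162 for the nuclease guides, 0.113 for the YTHDF2 guides and 0.159 for the effectors with SMARCA4. The class differences kept their direction in these settings, and with 1 library left out they ranged from -0.129 to -0.0896, 0.0120 to 0.128, -0.133 to -0.0171 and 0.0845 to 0.124 points. The summed shares of the SR, hnRNP and NMD-sensitive lists with the nuclease were lower in TPM and in every such fit, settings also chosen after seeing the data. DESeq2 called 26, 16, 24, 15 and 17 members in the transcript test (nuclease guides, YTHDF2 guides, interaction, effectors with NT, effectors with SMARCA4), where edgeR called 0. The cause was not tested. Leaving out 1 library gave 0, 0 to 6, 0 to 3, 0 to 9 and 0 transcript calls in the same order, and 0 to 2, 0 to 14, 0 to 14, 0 to 12 and 0 to 4 usage calls. Without nuclease-NT replicate 3 the usage test called 2 members for the nuclease guides, and 16 of all 48392 targets. For the effectors with SMARCA4 it called 4 members without YTHDF2-NT replicate 1 or 2, and 35 of 48735 and 37 of 48380 of all targets. Without YTHDF2-NT replicate 2 there were 6, 3 and 9 transcript calls and 14, 14 and 12 usage calls for the YTHDF2 guides, the interaction and the effectors with NT, the 3 comparisons with that group. Calls over all targets rose in those fits too. In the same order they were 67, 44 and 116 of 53933 in the transcript test and 173, 217 and 160 of 48380 in the usage test. Limma called 0 members in each comparison, and its median usage changes were 0.0737 (YTHDF2 guides), 0.130 (interaction), -0.0513 and 0.0683 (effectors with NT and SMARCA4). The edgeR medians with 1 library left out ran from -0.0373 to -0.0125 for the nuclease guides, 0.00815 to 0.0469 for the YTHDF2 guides, 0.0354 to 0.0863 in the interaction, 0.0311 to 0.0460 in the effectors with SMARCA4 and from -0.0451 to 0.00679 in the effectors with NT, whose sign turned without nuclease-NT replicate 3. Fits on the 6 libraries of a comparison gave 2 usage calls for the nuclease guides and 5 for the effectors with SMARCA4. Of all targets, 68 of 34877 and 88 of 35697 were called in these fits. In the interaction there were 4 calls with members of at least 10, 0 with at least 50 and 4 with no filter. The effectors with NT had 0 at 50 and 0 with no filter, and those with SMARCA4 had 3 with no filter. With no filter, 168, 25 and 32 of all 111061 targets were called in the interaction and the effectors with NT and with SMARCA4. With the replicate block there were 0 usage calls in the interaction and in both effector comparisons. The 18 same-numbered pairs of libraries had correlations of -0.096 to 0.0362, none over 0.1. With the wide spread of single models, such correlations cannot show whether same-numbered libraries were handled together. Calls on models at or near 0 in a group rest on few reads, and those on members with no word of their own can rest on divided reads.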

Other observations

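Among the members with the lowest p-values in a transcript test were models of genes with roles in transcription and autophagy, none called by edgeR. ATG4A-204, from the gene of a protease that processes ATG8 proteins in autophagy, held 6.61, 6.91 and 2.79% of ATG4A in nuclease-NT and 16.6, 15.4 and 11.3% with the SMARCA4 guide. In the YTHDF2 cells it held 2.31, 2.29 and 4.995% with the NT guide and 16.2, 11.5 and 10.3% with the SMARCA4 guide. All 6 SMARCA4-guide libraries were above all 6 NT-guide libraries. The log2 fold change of ATG4A-204 between the YTHDF2 guides was 2.14 (SE 0.472), with an adjusted p of 1 in edgeR's transcript test and 0.000159 in DESeq2. In edgeR's usage test its unadjusted p was 0.185. ATG4A-204 has a mean estimated count of 40.0 and 328 words of its own. This member was singled out after its values were seen.

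BRD8-224, from the gene of a bromodomain subunit of the NuA4 histone acetyltransferase complex, held 34.9, 28.7 and 29.01% of BRD8 in nuclease-NT and 42.5, 40.1 and 39.8% in YTHDF2-NT, without overlap. Its count differed by 0.53 on the log2 scale (SE 0.123), with an adjusted p of 0.890 in edgeR's transcript test and 0.00121 in DESeq2. In edgeR's usage test its unadjusted p was 0.590. TADA2A-213, from the gene of an adaptor of histone acetyltransferase complexes, held 42.6, 42.6 and 34.9% of TADA2A in nuclease-NT and 38.9, 39.8 and 32.5% with the SMARCA4 guide. With YTHDF2 these were 32.8, 29.5 and 35.4% and then 47.8, 46.8 and 40.5%. The difference between its guide effects was 1.002 on the log2 scale, with an adjusted p of 0.953 in edgeR's transcript test and 9.30e-05 in DESeq2. In edgeR's usage test its unadjusted p was 0.562.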
